A study of Homo sapiens with 3 samples.

Results

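The STAT transcription factors and their SOCS inhibitors were read in THP-1 macrophages as 9 genes out of the 43317 gene names on the array, by 11 of its 58201 probes. The genes were STAT2, STAT3, STAT4, STAT5A, STAT6, SOCS1, SOCS2, SOCS3, and CISH. Every transcript probe whose gene name in the scanner output was 1 of these was taken, which gave 2 probes each for STAT3 and STAT4 and 1 for each of the other genes. STATs are latent cytoplasmic proteins that Janus kinases phosphorylate once a cytokine has bound its receptor, after which they dimerize, enter the nucleus, and switch on target genes. SOCS proteins and CISH are among those targets and close the loop, because they dock onto the receptors or kinases and dampen the signal. In macrophages this circuit relays interferons, the IL-6 and IL-10 families, IL-4, and colony-stimulating factors.

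THP-1 is a human monocytic leukemia line that the phorbol ester PMA (100 ng/mL for 24 to 36 h per the labels) turns into macrophage-like cells, and all 3 conditions shared that step. The conditions were macrophages without further treatment (Ctrl), macrophages given imiquimod, a synthetic ligand of toll-like receptors (IMQ), and macrophages given DMD, a small phenolic compound from the fungus Antrodia cinnamomea, ahead of IMQ (IMQ+DMD). The labels call the added agent of the last condition X, and the reading of X as DMD rests on the absence of any other compound in the labels. They give 4 h for each array and no dose of IMQ or DMD, whereas the general methods of the study describe a longer exposure. Each condition was 1 sample on 1 one-color array, so a difference between conditions has no replicate check and no p-value. What limits the model is that the cells are 1 leukemia line matured with a drug.

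The arrays carry probes of 60 bases, and the readings are the Cy3 fluorescence of each probe, quantile normalized by the authors. The share of probes that the scanner marked as well above background was 72.0% in Ctrl, 66.6% in IMQ, and 71.9% in IMQ+DMD. Below, a level is a normalized intensity and a difference is a difference of log2 normalized intensities between 2 arrays. The error given with a difference is a technical SD from probes printed in 10 spots on each array, taken at the same brightness, and it holds no variation between cultures. A reading not well above background was raised to the lowest one with that mark on its array, if it lay below that. The difference is then a lower bound, provided that the raised reading stays below the other. This failed for the receptor chain IL23R (21.6 in Ctrl, 18.1 in IMQ, and 22.2 in IMQ+DMD). Raising its dim IMQ reading turned its differences from Ctrl and IMQ+DMD, so these are no bounds. Levels of different probes cannot be set against each other, because probes bind with different strength. In RNA from whole cultures, fewer cells with a transcript and less transcript per cell cannot be told apart.

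The cell identity was checked on macrophage and monocyte markers. All 8 of the 8 markers read (CD14, ITGAM, CSF1R, TYROBP, AIF1, SPI1, CD163, and MARCO) were well above background on each array, with a summed level of 564495 in Ctrl, 467114 in IMQ, and 449492 in IMQ+DMD. The brightest probe of the list was that of TYROBP (237219, 223150, and 227349), which gives no order of abundance among the genes. After IMQ, 7 of the 8 read lower than in Ctrl, with a median difference of -0.33, and 1 was at least 2-fold lower (3 without normalization and with scaling to spike-in controls). This was the scavenger receptor CD163, at 11063 in Ctrl, 4753 in IMQ, and 5045 in IMQ+DMD. CD14, a co-receptor for lipopolysaccharide, read 21875, 13399, and 9436, so it was 2.32-fold lower in IMQ+DMD than in Ctrl. CD68 and LYZ were not analysed here. Some markers of other cell types were also detected. The 3 T-cell genes summed to 688, 592, and 697, and the 3 B-cell genes to 4671, 3800, and 4511, all well above background and lowest in IMQ, with the CD79A probe the brightest. Of the pair of NK-cell genes, KLRD1 was not well above background on any array, while NCAM1 read 35.1 in Ctrl, 297 in IMQ, and 188 in IMQ+DMD. The pair of keratinocyte genes summed to 88.8, 69.5, and 112, the 3 fibroblast genes to 164, 138, and 170, and HBB read 27.8, 25.6, and 30.4. Of these, KRT5 and HBB were not well above background in IMQ, and COL1A2 was not on any array. KRT5 was at least 2.16-fold higher in IMQ+DMD than in IMQ, a call that was lost under an alternative (0.44 at the lowest). The part of these genes in the results was not tested.

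The 4 oligonucleotides behind the larger differences are shown first, as the array prints them, since a reading depends on where in a transcript it was taken. STAT4 was read near its start, from base 486 of the transcript in the array annotation (chr2:192011381-192011440, minus strand, hg19), and near its end, from base 2470 (chr2:191895703-191895762, minus strand). For SOCS3 (chr17:76353127-76353186, minus strand) and SOCS2 (chr12:93969799-93969858, plus strand), only the last 30 bases of the probe are given.
STAT4, from base 2470: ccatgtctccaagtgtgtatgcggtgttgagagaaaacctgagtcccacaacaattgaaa
STAT4, from base 486: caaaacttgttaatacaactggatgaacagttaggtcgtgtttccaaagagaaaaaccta
SOCS3, last 30 bases: caggtattgggctggacagggcagttgtgt
SOCS2, last 30 bases: acataaacagttgtctcccttctactgtgt
The probe from base 2470 stood for STAT4, because it had the higher mean log2 value over the 3 arrays, and the other is called the second probe.

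After IMQ, 3 of the 9 genes were at least 2-fold higher than in Ctrl, namely SOCS3, STAT4, and SOCS2, beside 4.06% of the 32747 genes measured in that comparison. None of the 9 was at least 2-fold lower, beside 3.49% of all genes. The background depends on the scale, with 1329 genes higher and 1143 lower as normalized but 450 and 8123 with scaling to spike-in controls, where STAT4 and SOCS3 remained past 2-fold. Of the other 6 genes, STAT5A came nearest to 2-fold, and STAT2, STAT3, STAT6, SOCS1, and CISH differed by 1.34-fold or less in either direction. The median difference over the 9 genes was 0.31, and that over all genes was -0.01.

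**Figure D1:**
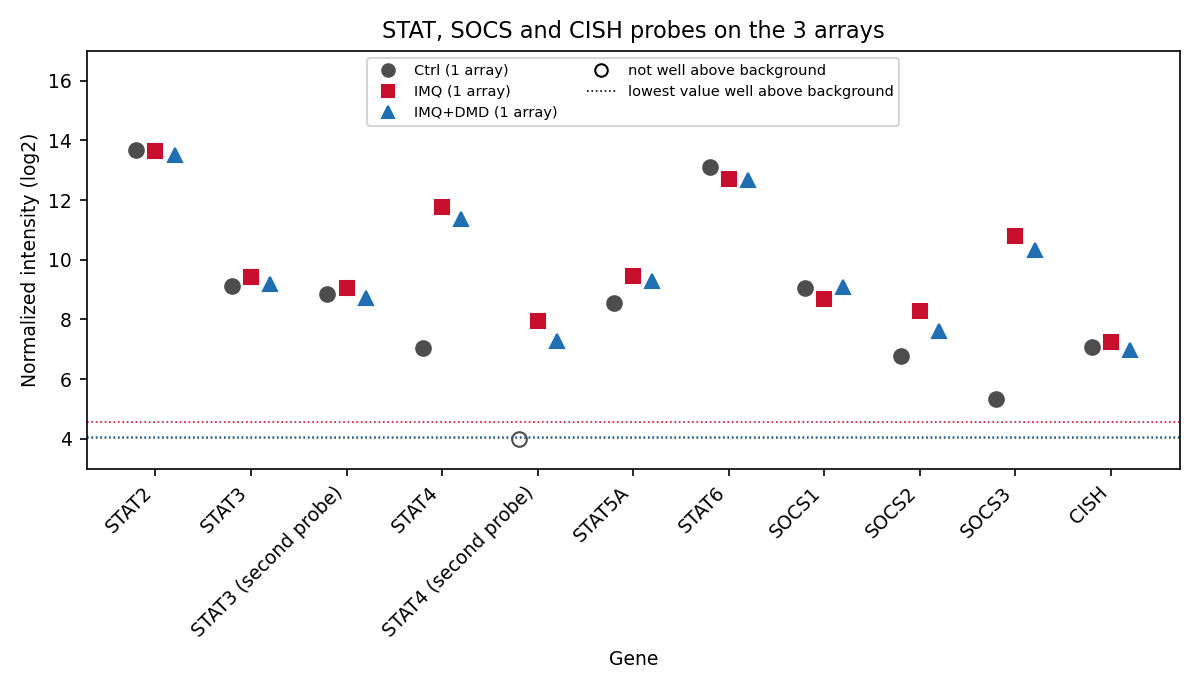
Normalized intensity on the log2 scale (vertical axis) of each STAT, SOCS, and CISH probe on the Ctrl, IMQ, and IMQ+DMD arrays, 1 array per condition, with open symbols for readings not well above background and dotted lines for the lowest value that was (4.04 in Ctrl, 4.57 in IMQ, and 4.08 in IMQ+DMD). The Ctrl reading of STAT4 and SOCS3 lies far under both other readings, whereas the 3 readings of STAT2, STAT3, and CISH lie close together.

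Among the transcription factors, STAT4 stood out. STAT4 relays IL-12 and IL-23 and is best known from T cells and NK cells. Its level was 131 in Ctrl, 3480 in IMQ, and 2651 in IMQ+DMD, with each reading well above background. IMQ was 26.5-fold over Ctrl, a difference of 4.73 ± 0.11 (technical SD), which placed STAT4 24th from the top of the 32747 genes. Of these genes, 3211 had a dim reading in Ctrl or IMQ, so the rank holds only with the floor used here. The second probe read 16.1 in Ctrl, where it was not well above background, 248 in IMQ, and 156 in IMQ+DMD. Its IMQ reading was at least 15.1-fold over Ctrl, so that both ends of the transcript moved the same way. When the background was corrected with normexp (offset 50), the difference of the second probe was 1.86, and that of the probe from base 2470 was 4.18.

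STAT5A, which serves GM-CSF, IL-3, and prolactin receptors, had a level of 379 in Ctrl, 697 in IMQ, and 619 in IMQ+DMD. It was 1.84-fold higher after IMQ (0.88 ± 0.08), which is beyond the spot noise and short of the 2-fold mark. The difference ranged from 0.30 with scaling to spike-in controls to 0.92 over the alternatives. STAT5A lies next to STAT3 on chromosome 17. STAT3, the main relay of IL-6 and IL-10, read 560, 693, and 586 in Ctrl, IMQ, and IMQ+DMD. The second STAT3 probe read 462, 526, and 420. Both probes were highest in IMQ, by 0.31 ± 0.07 and 0.19 ± 0.08 over Ctrl, but these differences turned negative (down to -0.28 and -0.43) when the arrays were not normalized or were scaled to spike-in controls.

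STAT2 and STAT6 were bright on all arrays. STAT2, a factor of the response to type I interferon, read 13038 in Ctrl, 12816 in IMQ, and 11561 in IMQ+DMD. Its difference after IMQ was -0.02 ± 0.06, within the spot noise, and its sign turned with the scaling (-0.52 to 0.10). STAT6, the factor of IL-4 and IL-13, read 8918, 6637, and 6539. It was lower after IMQ by 1.34-fold (-0.43 ± 0.06), and it was lower under each scaling tried (-0.96 to -0.33). The STAT6 spot was patchy, with pixels less even than in 99.8% of the spots of similar brightness in Ctrl, 99.9% in IMQ, and 99.7% in IMQ+DMD, although the scanner software placed no outlier mark on it. Among the other member spots the highest such shares were 94.8% for SOCS3 and 94.3% for STAT3, both in Ctrl.

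Among the inhibitors, SOCS3 stood out, with the largest difference of the 9 genes as normalized. SOCS3 binds gp130 and the G-CSF receptor together with their Janus kinases and is the usual brake on IL-6 signaling. Its level was 40.8 in Ctrl, 1759 in IMQ, and 1281 in IMQ+DMD, all well above background. IMQ was 43.1-fold over Ctrl (5.43 ± 0.22), rank 14 from the top of all genes measured. This rank, too, holds with dim readings at the floor. With the normexp correction the difference was 4.07, below the 4.18 of STAT4. SOCS2, known for restraining growth hormone signaling, read 110 in Ctrl, 313 in IMQ, and 196 in IMQ+DMD. Its rise after IMQ was 2.83-fold (1.503 ± 0.18), and it fell short of 2-fold only with scaling to spike-in controls (0.84).

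SOCS1 and CISH did not follow SOCS3. SOCS1, which inhibits Janus kinases directly and curbs interferon signaling, read 532 in Ctrl, 414 in IMQ, and 548 in IMQ+DMD. It was 1.29-fold lower in IMQ than in Ctrl (-0.36 ± 0.08), and lower under each scaling tried (-0.99 to -0.33). CISH, which blocks STAT5 docking sites on cytokine receptors, read 134, 151, and 125. Its difference after IMQ was 0.18 ± 0.14, and its sign turned with the scaling (-0.55 to 0.18).

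**Figure D2:**
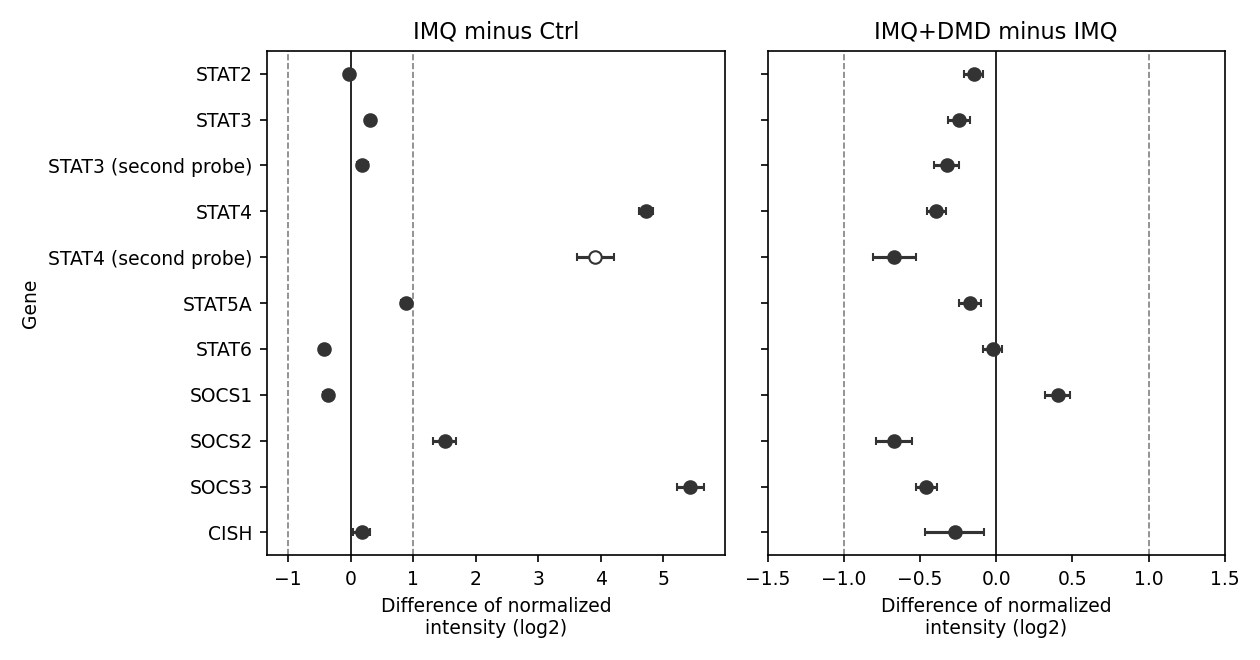
Difference of log2 normalized intensity (horizontal axis) for each probe, IMQ minus Ctrl on the left and IMQ+DMD minus IMQ on the right, with bars of 1 technical SD from repeated spots, an open symbol for a lower bound, and dashed lines at 2-fold. SOCS3 (5.43), STAT4 (4.73 and at least 3.91), and SOCS2 (1.503) lie past 2-fold on the left, and no probe does on the right.

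When DMD was given before IMQ, none of the 9 genes differed by 2-fold or more from IMQ alone. This comparison shares the IMQ array with that of IMQ against Ctrl. An error in an IMQ reading therefore enters both with opposite sign, and the 2 are not independent. Over all 32556 genes measured, 1.15% were at least 2-fold higher and 1.22% at least 2-fold lower, so a small set without such a call is near the background. The split of 376 higher and 396 lower genes became 3124 and 94 with scaling to spike-in controls. Of the 9 genes, 8 read lower than in IMQ and 1, SOCS1, read higher. The median over the 9 was -0.24 and that over all genes 0.00. With scaling to spike-in controls the signs of STAT5A, STAT6, and CISH turned positive (0.06, 0.10, and 0.20), those of the other 6 did not, and the median over all genes moved to 0.31.

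Of the genes past 2-fold after IMQ, SOCS3 and STAT4 stayed far above Ctrl with DMD, and SOCS2 did not stay past 2-fold. SOCS3 was 1.37-fold lower with DMD than with IMQ alone (-0.46 ± 0.07), and STAT4 was 1.31-fold lower (-0.39 ± 0.06) on its main probe and 1.59-fold lower (-0.67 ± 0.14) on the second. Measured on the log2 scale, 91.6% of the SOCS3 rise and 91.7% of the STAT4 rise was left. For the second STAT4 probe, whose Ctrl reading was dim, both differences from Ctrl are lower bounds. Its share of 82.9% as normalized therefore follows the floor and is no exact value. The share was smaller with normexp, where its difference from Ctrl was 1.86 in IMQ and 1.35 in IMQ+DMD. SOCS2 was 1.59-fold lower (-0.67 ± 0.12), with 55.3% of its rise left, and it was the sole gene of the 9 past 1.5-fold in this comparison when each gene was read from its main probe. These 3 differences were negative under each scaling tried (SOCS3 -0.61 to -0.30, STAT4 -0.57 to -0.26, SOCS2 -0.67 to -0.29).

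SOCS1 moved the opposite way. Its reading with DMD was 1.32-fold over that with IMQ alone (0.40 ± 0.08, and 0.36 to 0.67 under the alternatives). The lower value after IMQ and the higher one with DMD rest on the same single IMQ reading. Against Ctrl the SOCS1 difference with DMD was 0.04 as normalized. It ranged from -0.39 to 0.05 over the alternatives, so its sign turned. The remaining differences were -0.24 ± 0.07 and -0.32 ± 0.08 for the STAT3 probes, -0.17 ± 0.07 for STAT5A, -0.15 ± 0.06 for STAT2, -0.27 ± 0.19 for CISH, and -0.02 ± 0.06 for STAT6. That of STAT6 was smaller than its spot noise.

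Against Ctrl, the IMQ+DMD array held 2 of the 9 genes at 2-fold or more, STAT4 (20.2-fold) and SOCS3 (31.4-fold), beside 3.04% of 33715 genes that were that much higher. None was 2-fold lower, beside 4.83% of all genes. SOCS2 was 1.78-fold and STAT5A 1.64-fold over Ctrl. This comparison shares both of its arrays with the others, so its values are not independent of theirs.

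**Figure D3:**
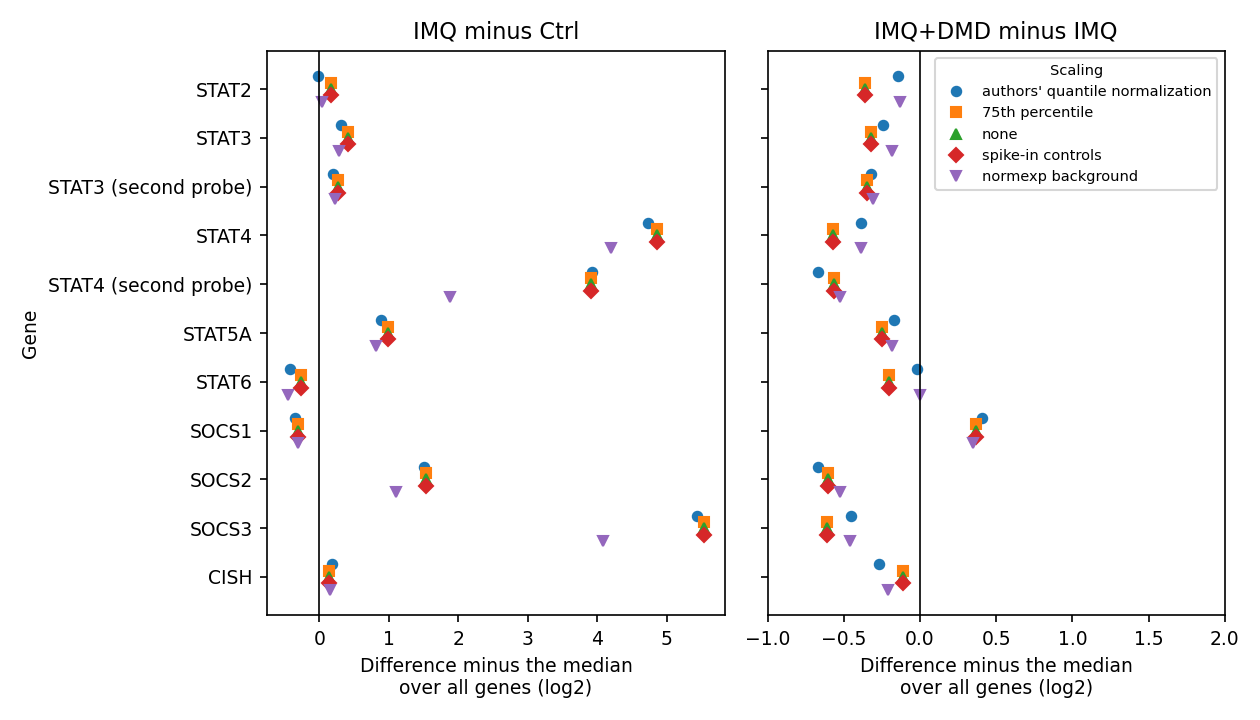
Difference of each probe minus the median difference over all genes (horizontal axis, log2) under 5 ways of scaling the arrays, IMQ minus Ctrl on the left and IMQ+DMD minus IMQ on the right, with 1 point per probe and scaling. Relative to all genes, SOCS3, STAT4, and SOCS2 lay highest on the left under each scaling, and SOCS1 was the gene to the right of 0 in the right panel under each.

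None of 5 close relatives of the members passed 2-fold after IMQ. Of all genes, 4.06% were at least 2-fold higher and 3.49% lower, so 0 of 5 is near the background. STAT5B, a near twin of STAT5A, read 1213 in Ctrl, 1199 in IMQ, and 1084 in IMQ+DMD. SOCS4 (2526, 2726, and 2862), SOCS5 (560, 629, and 578), and SOCS6 (131, 114, and 80.8) were also within 2-fold on all arrays. The SOCS5 spot was more uneven than 99.9% of similar spots in IMQ+DMD. SOCS7 had the largest difference among these 5 relatives, with 90.5 in Ctrl, 165 in IMQ, and 127 in IMQ+DMD, 1.83-fold (0.87 ± 0.19) after IMQ, but its difference went down to 0.15 over the alternatives. None of the 5 passed 2-fold in IMQ+DMD against IMQ either, beside 1.15% of all genes higher and 1.22% lower. Their median difference after IMQ was 0.11, but -0.26 without normalization and -0.44 with scaling to spike-in controls.

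The Janus kinases, which sit upstream of the STATs, likewise had 0 of 4 genes past 2-fold in both comparisons. Over all genes, 4.06% were higher and 3.49% lower after IMQ, and 1.15% and 1.22% with DMD. A count of 0 of 4 is therefore near the background. JAK1 read 434, 674, and 554, and JAK2 read 1143, 696, and 589. The JAK2 difference after IMQ was -0.72 ± 0.07 and that of JAK1 0.64 ± 0.08, each of the same sign under every scaling tried, though that of JAK1 went down to 0.04, within its spot noise. The JAK2 spot was also uneven, with up to 99.4% of similar spots more even, in IMQ. JAK2 passed the 2-fold mark without normalization and with scaling to spike-in controls (-1.32), where 1 of the 4 kinases was lower. JAK3 (65.0, 75.5, and 46.5) and TYK2 (526, 582, and 611) differed by 0.22 ± 0.24 and 0.15 ± 0.07 after IMQ. The sign of each turned over the alternatives (JAK3 -0.57 to 0.22, TYK2 -0.46 to 0.16). Of 11 other inhibitors of the pathway (PIAS proteins, tyrosine phosphatases, SH2B3, and USP18), 1 passed 2-fold after IMQ. This was USP18, which blocks the type I interferon receptor, with 1430 in Ctrl, 424 in IMQ, and 363 in IMQ+DMD, a difference of -1.76 ± 0.08. With scaling to spike-in controls PIAS2 also passed (-1.06). Of the 4 partners that join the SOCS box to an E3 ubiquitin ligase (TCEB1, TCEB2, CUL5, and RNF7), 0 passed 2-fold in either comparison. The counts of the inhibitors and of these partners, too, are near the shares over all genes.

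More of the ligands than of the receptors passed 2-fold. Of 23 cytokines that signal through STATs, a list chosen with earlier results known, 15 were measured in IMQ against Ctrl. Of these, 10 were at least 2-fold higher and 0 lower, with a median difference of 2.56, beside 4.06% and 3.49% of all genes. A gene dim in Ctrl, such as CSF2, counts as measured only through its IMQ reading. Of the 13 well above background on both arrays, 9 were higher and 0 lower. With scaling to spike-in controls 10 were higher and 2 lower. IL23A, a subunit of a STAT3 and STAT4 ligand, was at 405 in Ctrl, 24060 in IMQ, and 12679 in IMQ+DMD. CSF2 (GM-CSF) was not well above background in Ctrl and read 695 in IMQ and 698 in IMQ+DMD, at least 42.2-fold over Ctrl. IL11 (53.6, 1558, and 1099) and CSF3 (30.0, 612, and 240) were 29.1-fold and 20.4-fold over Ctrl. The CSF3 probe used differed by 4.35, whereas a second CSF3 probe, dim in Ctrl, was higher by at least 2.57. OSM was at 129, 3687, and 1999 on 1 probe, a difference of 4.83, whereas a second OSM probe differed by 0.31. IL6, the textbook inducer of SOCS3, was 7.73-fold over Ctrl (55.1, 426, and 274) on its measured probe. Over the alternatives the differences went down to 3.35 for CSF2, 3.76 for IL11, 2.92 for CSF3, and 2.02 for IL6, so these folds depend on the processing and the direction did not. With DMD, CSF3 was the 1 cytokine of 15 that was at least 2-fold below IMQ (-1.35 ± 0.11), beside 1.22% of all genes. Its second probe differed by -2.11. The median of the list was -0.34. The number at least 2-fold lower was 3 with the 75th percentile, where IL23A (-1.12) and OSM (-1.06) joined CSF3, and 2 without normalization. With scaling to spike-in controls, 1 was higher and 1 lower, and the median of the list was -0.07.

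Of the 25 receptor chains, 22 were measured after IMQ, of which 3 were at least 2-fold higher and 1 lower. These stand beside 4.06% and 3.49% of all genes. With scaling to spike-in controls, 2 chains were higher and 3 lower. IL7R rose from 197 to 2570 (13.0-fold) and read 1801 with DMD. CSF2RA, the GM-CSF receptor chain upstream of STAT5, read 103, 549, and 799, so it was higher with DMD than with IMQ alone (0.54 ± 0.07). The chains of the interferon-gamma receptor went opposite ways, with IFNGR1 at 39421, 15238, and 13926 and IFNGR2 at 5665, 14009, and 10688. IFNGR2 fell short of 2-fold without normalization and with scaling to spike-in controls (0.81 at the lowest). IL4R was read from a probe that differed by -0.27 after IMQ, whereas its other probes differed by 0.21 and 1.98. No receptor chain of the 22 measured passed 2-fold in IMQ+DMD against IMQ. Of all genes, 1.15% were higher and 1.22% lower, so 0 of 22 is near the background.

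**Figure D4:**
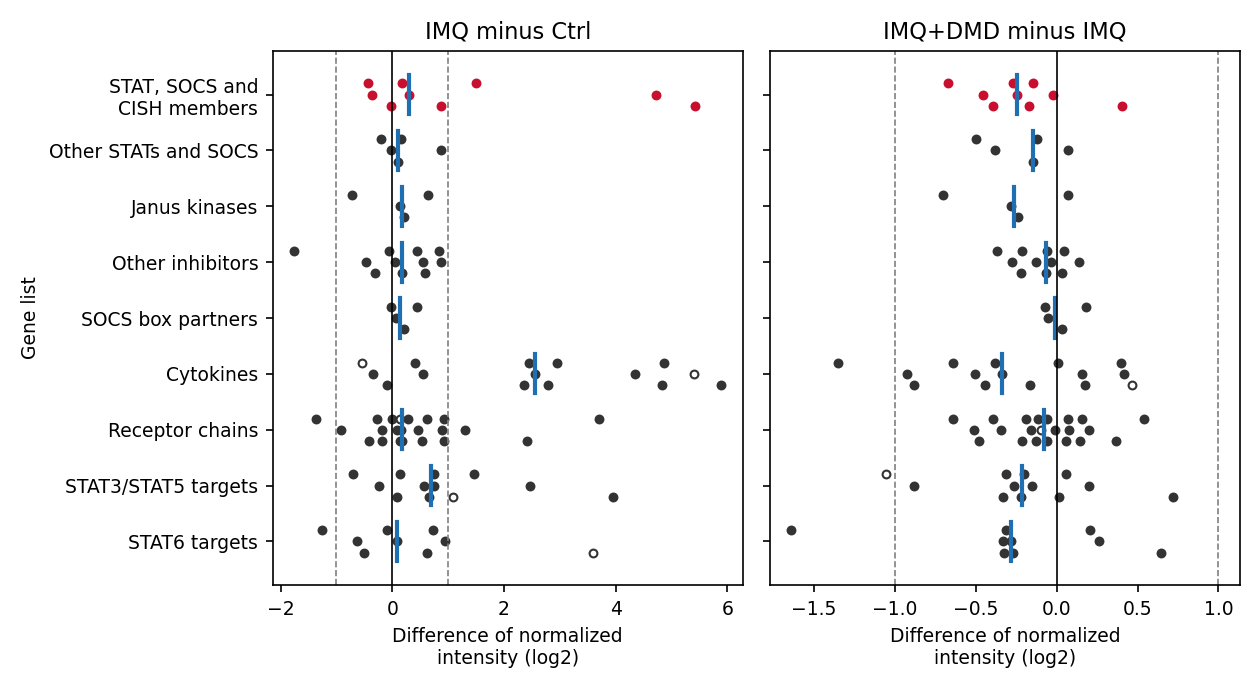
Difference of log2 normalized intensity (horizontal axis) for each measured gene of the STAT, SOCS, and CISH members (red) and of 8 related gene lists (dark), IMQ minus Ctrl on the left and IMQ+DMD minus IMQ on the right. Open circles mark genes with a reading not well above background, blue bars mark list medians, and dashed lines lie at 2-fold. On the left, the cytokine median lies at 2.56, while the other medians lie between 0.08 and 0.70.

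Of 12 genes known as STAT3 and STAT5 targets, 4 were at least 2-fold higher after IMQ and 0 lower, with a median of 0.70. The shares over all genes were 4.06% and 3.49%. The number higher was 3 with the 75th percentile, without normalization, and with normexp, and 1 was lower without normalization. With scaling to spike-in controls 2 were higher and 1, the growth regulator MYC (-1.25), was lower, with a median of 0.16. BCL3, a regulator of NF-κB, read 2238, 34867, and 28074, a difference of 3.96 ± 0.06. PIM2, a survival kinase, read 783, 4348, and 3454, and JUNB, an AP-1 subunit, read 375, 1032, and 1044. JUNB fell short of 2-fold at its lowest (0.89). FGG, a fibrinogen chain, was well above background in IMQ alone, at 35.0, and was at least 2.13-fold over Ctrl and at least 2.07-fold over IMQ+DMD, both bounds set by dim spots. Over the alternatives its differences shrank to 0.25 after IMQ and to -0.37 with DMD, so neither 2-fold call held throughout.

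Of 9 genes known as STAT6 targets, 1 was higher and 1 lower by 2-fold after IMQ, beside 4.06% and 3.49% of all genes. The chemokine CCL22 was not well above background in Ctrl and read 199 in IMQ and 63.8 in IMQ+DMD, at least 12.1-fold over Ctrl and then 3.11-fold lower with DMD. CD1C, a lipid antigen-presenting molecule, read 118, 49.4, and 39.8. ALOX15 was read from a probe that differed by 0.08 after IMQ, whereas its second probe, dim in IMQ, was lower by at least 1.38. The direction of CCL22 and of CD1C after IMQ was the same under each scaling tried, but over the alternatives the CCL22 difference shrank to 1.76 after IMQ and to -1.01 with DMD. CD1C fell short of 2-fold with normexp (-0.71), and 3 of the 9 were at least 2-fold lower without normalization and with scaling to spike-in controls. The lists of targets rest on general knowledge of these factors, many of the genes answer to other factors as well, and no binding was measured in these cells.

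By the pair of differences (IMQ against Ctrl, and IMQ+DMD against IMQ), the 5 genes most like SOCS3 among 29337 genes well above background on all 3 arrays were NR4A3, SLC43A2, IER3, GFPT2, and CCL3L3. NR4A3, an orphan nuclear receptor, lay 0.08 log2 units away, with differences of 5.50 and -0.41. SLC43A2, an amino acid transporter, lay 0.33 away (5.11 and -0.44). IER3, an immediate-early gene, lay 0.36 away (5.10 and -0.32). GFPT2, an enzyme of hexosamine synthesis, lay 0.45 away (5.34 and -0.02). CCL3L3, a chemokine whose sequence is nearly that of its gene copies, which its probe may also bind, lay 0.49 away (5.05 and -0.14). With 3 arrays the likeness rests on 2 differences per gene, which share the IMQ array.

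The promoters were read for the motif that STAT dimers bind. RefSeq windows on GRCh38.p14, 250 bases before to 50 after a start site, were at hand for 8 of the 9 genes and not for SOCS2. They were searched on both strands for TTCNNNGAA, for the same TTC and GAA with 4 bases between them, the shape known for STAT6, and for an interferon response motif, GAAA repeated after 2 bases. The first and second motif read the same on both strands, so a match on 1 strand is also a match on the other. Of 35116 promoter windows, 7.66% held the first, 6.44% the second, and 3.57% the third. CISH held 4 copies of TTCNNNGAA, none overlapping another. The 250 bases before its start site (chr3:50611775-50612024, minus strand, GRCh38.p14) are shown with the matches in capitals.
CISH: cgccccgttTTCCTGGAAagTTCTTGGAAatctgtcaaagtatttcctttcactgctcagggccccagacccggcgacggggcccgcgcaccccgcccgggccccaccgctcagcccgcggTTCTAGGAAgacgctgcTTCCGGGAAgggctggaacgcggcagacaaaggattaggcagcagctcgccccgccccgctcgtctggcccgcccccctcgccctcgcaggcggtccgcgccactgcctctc
SOCS1 held 1 interferon response motif, at position -113 from its start site, and 1 of the 3 windows of STAT5A held 1 match to the STAT6 shape. The windows of STAT2, STAT3, STAT4, STAT6, and SOCS3 held none of the 3 motifs, which says only that these letters are not in these windows. SOCS3 had 2 windows, and the bases between them were not searched. CISH, with the most matches, had a difference of 0.18 after IMQ, and SOCS3 and STAT4, with none, had the largest differences. A match is a string of letters and no measure of binding.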

How the data were processed

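For each of the 3 arrays the authors deposited the scanner output (Feature Extraction 10.5.1.1) and a table of raw intensity and quantile-normalized intensity per probe, and the normalized intensity was used here. Detection calls in 3 further columns of that table and the authors' enrichment tests were not used. Background marks came from the scanner output. Probe positions follow hg19 as in the file headers. A gene with several probes was read from the probe with the highest mean log2 value over the 3 arrays. A gene was measured where that probe was well above background on the brighter array. A dim reading under the lowest value well above background on its array was raised to that value. The technical SD came from 300 probes with 10 spots. With 1 array per condition no test was run, the number of arrays limits the precision, and the 2-fold mark is descriptive. The number of saturated spots was 0 on every array.

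The members, the gene lists, and the rule for named genes were chosen with earlier results of these data known. Named were all members and 5 relatives, the Janus kinases, in each other list the genes past 2-fold (at most the 6 with the largest difference after IMQ), and the 5 genes nearest to SOCS3. The further probes of OSM and CSF3 and the genes ALOX15, IL4R, IL23R, CD163, CD14, KRT5, HBB, COL1A2, MYC, and PIAS2 were named after their values were seen. Alternatives covered the normalization (limma 3.58.1 quantile normalization of the scanner intensity, the 75th percentile, none, and 8 of 10 spike-in probes well above background), normexp background correction, the handling of dim probes, the threshold, and the mean over probes. The calculations were tested on simulated data and used R 4.3.3, Python 3.11.15, numpy 2.4.6, pandas 2.3.3, and matplotlib 3.10.9. Protein sequences were not used here, and a further relative and a further list of target genes are not reported here.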

Additional observations from a re-analysis of the deposited data

How the results depend on the processing

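Scaling decided the sign of small differences, and no difference of 2-fold or more changed its sign. Of 229 probe differences under alternatives, 146 moved by less than the technical SD, 83 by more, 0 of those past 2-fold reversed, and 17 small ones changed sign. The count of members past 2-fold was 2 to 4 for IMQ against Ctrl over all alternatives, thresholds included. With a 1.5-fold threshold it was 1 (SOCS2) in place of 0 for IMQ+DMD against IMQ, and 4 in place of 2 for IMQ+DMD against Ctrl. The median of the members in IMQ against Ctrl was 0.31, but -0.10 for arrays left unnormalized and -0.28 when spike-in controls set the scale, because the median over all genes moved to -0.51 and -0.69. Relative to all genes it lay between 0.21 and 0.41 under each alternative. In IMQ+DMD against IMQ the median of -0.24 became -0.32 with the 75th percentile, -0.011 with spike-in scaling, and -0.17 with normexp, and it lay between -0.32 and -0.18 relative to all genes.

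The background counts moved further. For IMQ against Ctrl, 1329 genes were higher and 1143 lower, against 577 and 5155 when arrays were left as scanned, 450 and 8123 with spike-in scaling, 588 and 608 with normexp, and 1506 and 1875 without a floor for dim probes. For IMQ+DMD against IMQ, 376 and 396 became 1056 and 211 with the 75th percentile, 1368 and 178 for arrays as scanned, 3124 and 94 with spike-in scaling, 20 and 29 with normexp, 974 and 533 without a floor, and 257 and 232 over genes well above background on both arrays. For IMQ+DMD against Ctrl, 1026 and 1627 became 510 and 3400 for unnormalized arrays, 576 and 2948 with spike-in scaling, and 526 and 816 with normexp. Among the gene lists, the STAT3 and STAT5 targets at least 2-fold higher numbered 2 of 12 with spike-in scaling. Dim Ctrl readings, such as the second STAT4 probe, CSF2, and CCL22, give bounds whose size follows the floor.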
